A study of Homo sapiens with 4 samples.

Results

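Interferon-induced genes are the genes that cells transcribe after interferon binds its receptor. The set described here was a list of 43 such genes chosen by symbol, and all 43 were found among the 17064 rows of the deposited table. The RNA came from cultured KYSE-150 cells, a line derived from a squamous carcinoma of the esophagus. Knockdown cells carried a stably expressed short hairpin RNA against NSUN6, an enzyme that forms 5-methylcytosine in RNA, and control cells had normal NSUN6 according to the labels, which name no control hairpin and no clone. Neither the labels nor the protocols mention treatment with interferon, and all cells received 100 µg/ml cycloheximide, which holds ribosomes on messages, before lysis. Part of each cleared lysate was kept as input, and the remainder was spun through 30% sucrose to collect polyribosome-bound RNA. There were thus 4 poly(A) RNA libraries, namely knockdown input, knockdown polyribosome, control input and control polyribosome, with 1 library per group. No difference has a replicate check, and no test was possible between conditions. Levels are in FPKM, fragments mapped to a gene, scaled by its transcript length and by the size of the library, and read depth is unknown.

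Interferons of type I and type III bind separate receptor pairs that both act through the kinases JAK1 and TYK2. These phosphorylate STAT proteins, of which STAT2 joins IRF9 in a complex that binds the interferon-stimulated response element in promoters. The products include sensors of viral RNA, proteins that block entry, translation or release of viruses, and the ubiquitin-like modifier ISG15 with its conjugation enzymes. Epithelial cells, including those of the esophagus, can respond to both types.

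The knockdown-labelled libraries carry an uncertainty of identity that touches every result. The table ends with another row of headings, which calls the control columns K150 with a hairpin against GFP and the other columns K30 with a hairpin against Mettl1, and which swaps the input and polyribosome columns of the knockdown pair. The first header fits the labels and was used, and these libraries are called knockdown-labelled throughout. NSUN6 stood at 3.83 FPKM in knockdown-labelled input and 0.38 FPKM in knockdown-labelled polyribosome RNA, against 8.85 and 10.13 FPKM in control input and control polyribosome RNA, and METTL1 at 5.98 and 8.32 FPKM against 13.02 and 14.32 FPKM in the same order. Epithelial markers also differed: of the 5 squamous markers with a mean of at least 5 FPKM, KRT5 and KRT14 were at least 2-fold lower and SOX2 at least 2-fold higher in both knockdown-labelled libraries, while KRT6A was at 29.51 to 40.03 FPKM in all 4. The fifth, TP63, was at 23.66 and 2.16 FPKM in knockdown-labelled input and polyribosome RNA, against 30.25 and 28.77 FPKM in control input and polyribosome RNA, at least 2-fold lower on polyribosomes alone. KRT5 stood at 0.45 and 0.70 FPKM in knockdown-labelled input and polyribosome RNA, against 906 and 1162 FPKM in control input and polyribosome RNA. The simple epithelial keratins KRT8 and KRT18 were at 1503 to 2547 FPKM in all 4 libraries, but KRT19, another keratin of simple epithelium, was at 1488 and 1973 FPKM in knockdown-labelled input and polyribosome RNA, against 0.07 and 1.02 FPKM in the controls. The epithelial adhesion genes EPCAM and CDH1 had log2 differences, knockdown-labelled minus control, of 1.47 and 1.13 in input and of -1.42 and -1.17 in polyribosome RNA. The hairpin and a difference between cell populations cannot be told apart as sources of any difference below. In these bulk libraries, a difference in the number of responding cells and one in RNA per cell cannot be told apart either.

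Promoters were read first, because the response element is the promoter feature the family is known for. RefSeq promoters of GRCh38.p14, running from 250 bases before to 50 bases after the gene start, were matched for 36 of the 43 genes, with DDX58 listed as RIGI. IFIT2, IFITM2, OAS2, OASL, IRF7, USP18 and TRIM22 had no entry. The letters searched for were GAAA and GAAAC with any 2 bases between them, a core form of the response element, on both strands (GTTTC and TTTC with 2 bases between them on the other strand). They were present in 20 of the 36 (55.6%), against 260 of 27305 genes with a promoter in the table (0.952%) and 0.795% of all 35116 promoters. The letters TTCNNNGAA, the palindrome bound by STAT dimers, were present in 13 of 36 genes (36.1%), against 9.38% of all genes and 7.66% of all promoters. In 5 of the 36 genes (13.9%; BST2, EPSTI1, IFI27, IFITM1 and MX1) the motifs overlapped, against 7 of all 27305 genes (0.0256%). A match describes the letters in this window and does not show binding.

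The following sequences are printed 5′ to 3′ on the strand of the gene, with the response element letters in capitals. They come from genes whose levels went different ways. Only promoters with a match were printed, so the capitals are alike by selection. IFI6 is shown over the whole promoter (chr1:27672143-27672442, minus strand) because it held 3 matches. The other lines give a stretch around a match, and IFITM1, IFIT3 and HERC5 held a further match outside the stretch shown. BST2 (chr19:17405735-17405775, minus strand), IFI27 (chr14:94110612-94110652, plus strand), IFITM1 (chr11:313985-314025, plus strand), ISG15 (chr1:1013369-1013409, plus strand) and IFI44 (chr1:78649755-78649795, plus strand) were higher in both knockdown-labelled libraries. IFIT1 (chr10:89392491-89392531, plus strand), IFIT3 (chr10:89327825-89327865, plus strand), PARP9 (chr3:122564317-122564357, minus strand) and PLSCR1 (chr3:146544661-146544701, minus strand) were higher in the knockdown-labelled input alone. IFITM3 (chr11:320885-320927, minus strand), OAS3 (chr12:112938447-112938487, plus strand), MX1 (chr21:41420554-41420594, plus strand) and HERC5 (chr4:88456978-88457018, plus strand) were 2-fold apart in neither fraction. MX1 and HERC5 stayed under 1 FPKM in every library, too low to be counted as 2-fold apart on the FPKM + 1 scale used here.
IFI6: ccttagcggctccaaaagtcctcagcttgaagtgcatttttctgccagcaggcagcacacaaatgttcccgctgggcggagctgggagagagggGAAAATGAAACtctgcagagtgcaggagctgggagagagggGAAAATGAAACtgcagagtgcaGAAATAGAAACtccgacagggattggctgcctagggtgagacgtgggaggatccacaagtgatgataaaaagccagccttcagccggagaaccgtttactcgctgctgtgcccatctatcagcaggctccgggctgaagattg
BST2: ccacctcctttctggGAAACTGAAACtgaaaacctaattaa
IFI27: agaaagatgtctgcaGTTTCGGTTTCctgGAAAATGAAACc
IFITM1: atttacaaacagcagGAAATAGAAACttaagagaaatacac
ISG15: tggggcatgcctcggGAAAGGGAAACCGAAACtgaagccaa
IFI44: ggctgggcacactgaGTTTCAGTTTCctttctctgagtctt
IFIT1: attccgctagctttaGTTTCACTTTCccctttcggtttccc
IFIT3: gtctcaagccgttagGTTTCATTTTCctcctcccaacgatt
PARP9: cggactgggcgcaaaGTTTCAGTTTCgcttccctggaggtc
PLSCR1: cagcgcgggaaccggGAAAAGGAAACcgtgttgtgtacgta
IFITM3: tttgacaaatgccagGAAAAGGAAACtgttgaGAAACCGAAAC
OAS3: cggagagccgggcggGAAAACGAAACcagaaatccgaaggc
MX1: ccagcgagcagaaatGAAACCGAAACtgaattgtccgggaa
HERC5: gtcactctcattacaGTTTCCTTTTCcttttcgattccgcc

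The response element letters were present at similar shares in genes whose levels went different ways. They were present in 6 of 10 matched genes that were higher in both knockdown-labelled libraries, in 6 of 11 higher in input alone and in 6 of 12 that were 2-fold apart in neither fraction. Of all 14 members in that last group, with or without a matched promoter, 8 had a mean under 1 FPKM. At such levels the added 1 FPKM limits the differences that can be counted. The median log2 input difference was 1.87 over the 20 genes with the letters and 1.12 over the 16 without, and the ranges, -0.47 to 7.87 and -0.35 to 5.37, overlapped. In polyribosome RNA the medians were 0.21 and 0.26. OAS1, LGALS3BP, IFI35 and IFI44L lacked the letters in this window and were among the genes higher in both libraries.

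**Figure D1:**
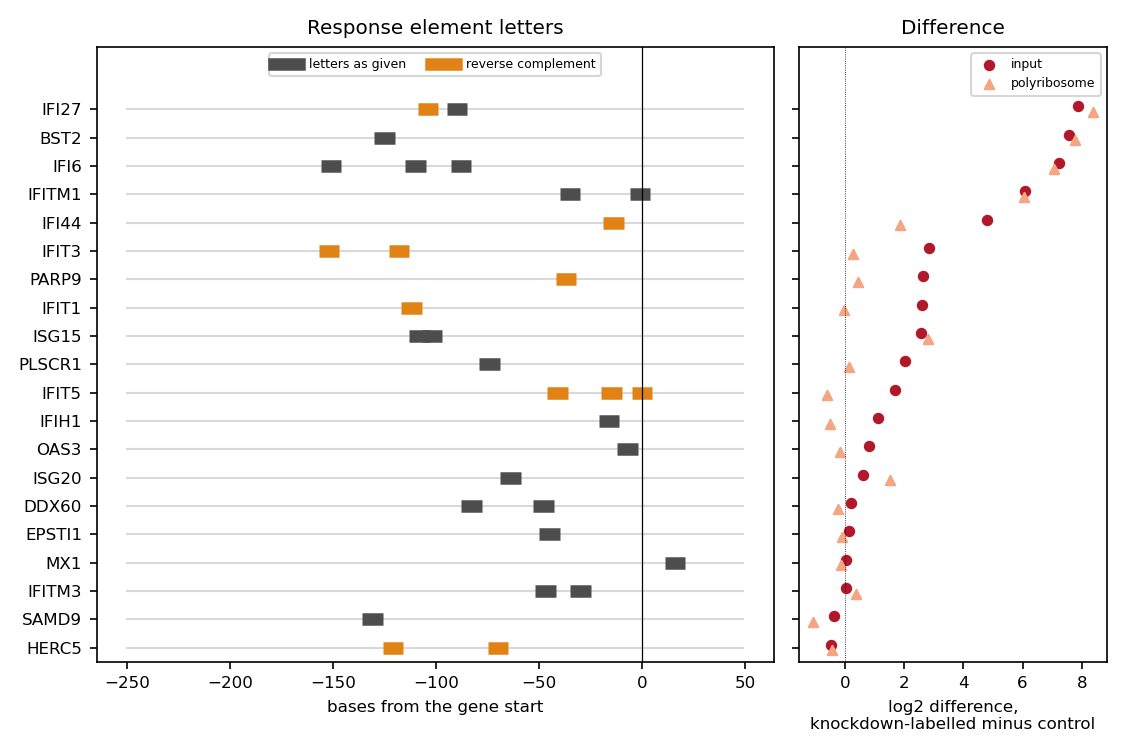
Left, position of the response element letters relative to the gene start in the 20 genes that held them, 1 promoter per gene, with bars in grey for the letters as given and in orange for the reverse complement; right, log2 difference of FPKM + 1, knockdown-labelled minus control, in input (circles) and polyribosome RNA (triangles). Genes run from the highest input difference (IFI27, 7.87) to the lowest (HERC5, -0.47). Every gene shown holds a match by selection, and the matched genes without the letters are not shown.

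As a set, the interferon-induced genes took a larger part of the message pool in the knockdown-labelled libraries. They summed to 7207 FPKM in knockdown-labelled input and 8263 FPKM in knockdown-labelled polyribosome RNA, which is 1.34% and 1.32% of each library, against 2744 and 2938 FPKM (0.474% and 0.520%) in control input and polyribosome RNA. The median member was at 26.4 and 6.83 FPKM in knockdown-labelled input and polyribosome RNA and at 3.91 and 3.36 FPKM in the corresponding controls. At least 100 FPKM was reached by 9 and 10 members in the knockdown-labelled libraries and by 3 and 4 in the control libraries. The share of all genes at that level was not counted. A few genes made up much of the sums. IFITM3 was at 2140 FPKM in knockdown-labelled input and 2090 FPKM in control input, and IFI6 at 1541 and 9.35 FPKM. On the FPKM + 1 scale, 0 of 43 members were 2-fold apart between input and polyribosome RNA of control cells (background 0.0352% of all rows higher and 0.779% lower on polyribosomes, or 0.00% and 0.759% of rows averaging at least 5 FPKM). The added 1 FPKM matters for low members, as SAMD9, IFIT2 and IFIH1 lay at -0.91, -0.83 and -0.78 in log2 polyribosome over input on that scale, while their FPKM in control cells, given with each gene below, were more than 2-fold apart.

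The count that does not depend on the order of the knockdown columns asked that the lower knockdown-labelled library be at least 2-fold, on the FPKM + 1 scale, above the higher control library. It held for 12 of 43 members (background 4.68% of all rows), namely BST2, IFI27, IFI35, IFI44, IFI44L, IFI6, IFITM1, ISG15, LGALS3BP, OAS1, OAS2 and USP18. The reverse held for 1 member, IFITM2 (background 4.66%). Among the 26 members averaging at least 5 FPKM, 11 were higher in both (background 6.57%) and 1 was lower (7.02%). Taking input by itself, 24 of 43 members were at least 2-fold higher in the knockdown-labelled library (background 9.46%) and 1 was lower (9.85%). In polyribosome RNA, 13 were higher (background 10.4%) and 4 lower (22.4%). Over all 43 members the median log2 difference was 1.22 in input (0 over every row) and 0.27 in polyribosome RNA (-0.04). The mean of 5 FPKM, taken over all 4 libraries, was passed by 7379 of all rows. BST2, IFI27, OAS2 and IFI44, low in both controls, passed it through the knockdown-labelled libraries. So did ISG20, at 3.87 and 3.36 FPKM in control input and polyribosome RNA, and OAS1, at 3.91 and 5.43 FPKM. This limit is thus not independent of the differences counted. Among the 26 members past that mean, 17 were higher in input (background 13.2%) with a median log2 difference of 1.69 against 0.01 over all genes, and 12 were higher in polyribosome RNA (background 16.7%) with a median of 0.78 against -0.28. With the knockdown-labelled columns exchanged, 13 were higher in input (background 15.9%) with a median of 0.99, and 15 were higher in polyribosome RNA (12.7%) with a median of 1.59.

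**Figure D2:**
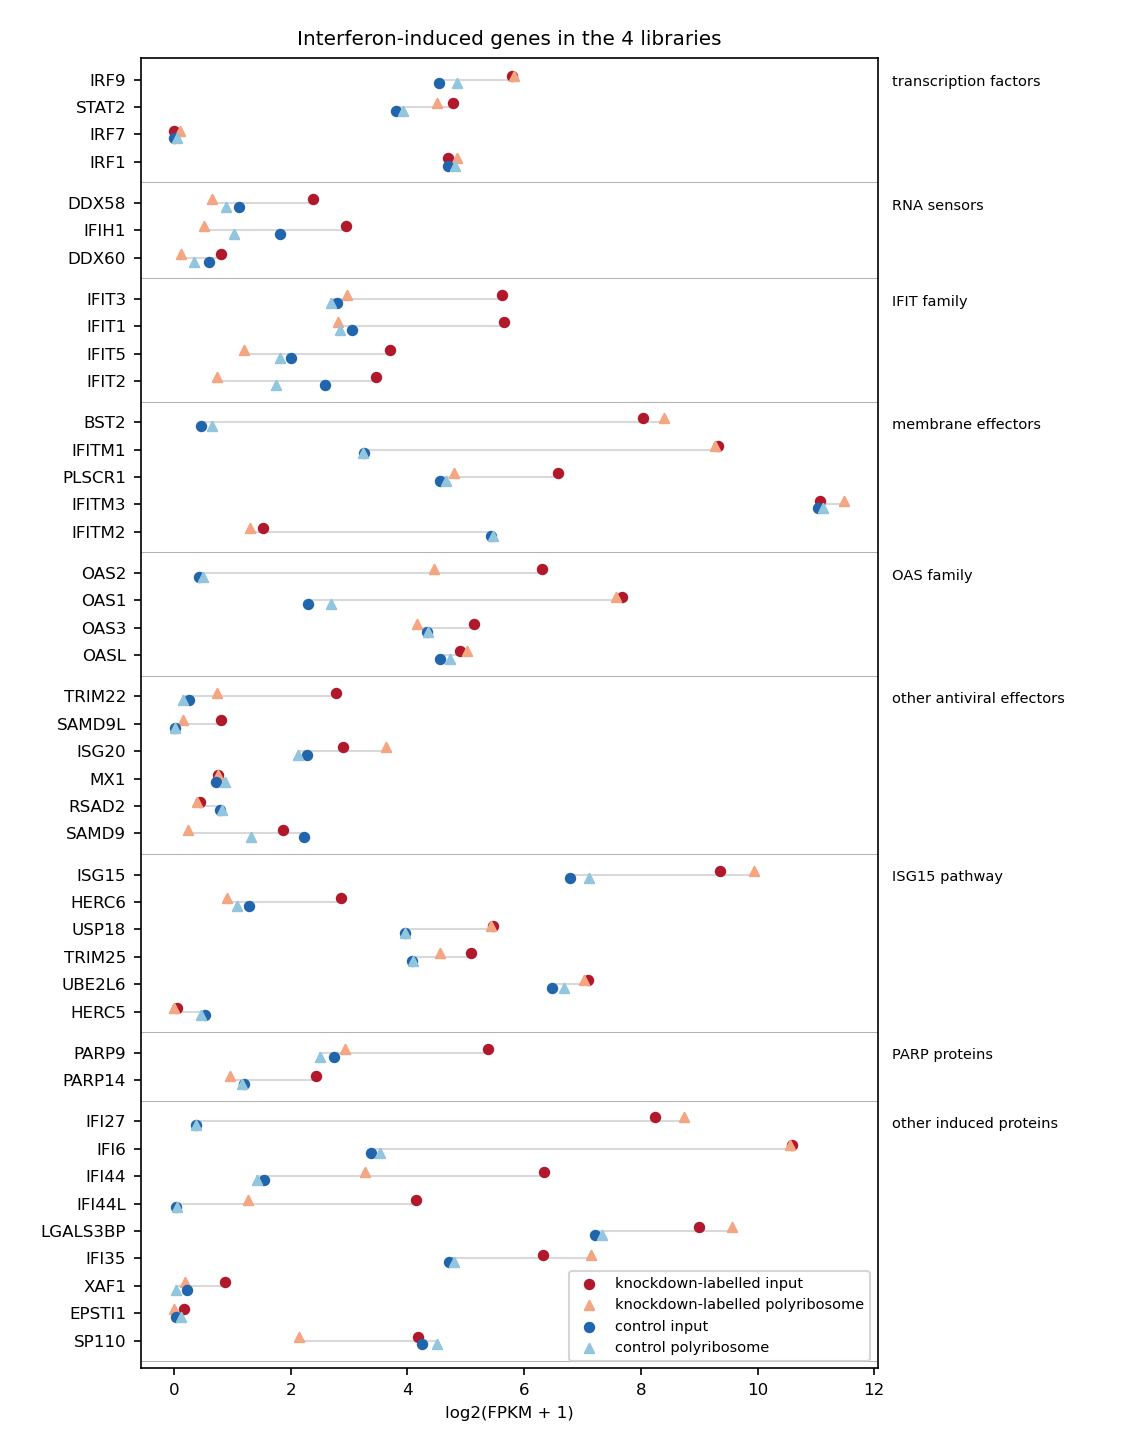
Level of each of the 43 genes, as log2(FPKM + 1), in the knockdown-labelled input (red circles), knockdown-labelled polyribosome (orange triangles), control input (dark blue circles) and control polyribosome library (light blue triangles), grouped by role; each point is 1 library. BST2, IFITM1, OAS1, OAS2, IFI27 and IFI6 have both knockdown-labelled points far to the right of both control points, while the IFIT genes, PLSCR1 and PARP9 have the knockdown-labelled input alone to the right.

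The transcription factors that carry the interferon signal differed modestly. IRF9, the DNA-binding subunit of the STAT complex, was at 54.5 and 55.9 FPKM in knockdown-labelled input and polyribosome RNA, against 22.3 and 27.9 FPKM in control input and polyribosome RNA, log2 differences of 1.25 in input and 0.98 in polyribosome RNA. STAT2, its partner, was at 26.4 and 21.6 FPKM in the knockdown-labelled libraries, against 12.9 and 14.1 FPKM in the controls, differences of 0.98 and 0.58. Both knockdown-labelled libraries thus lay above both controls for these genes, with IRF9 past 2-fold in input and STAT2 just short of it. IRF1, a factor induced mainly by interferon gamma, was at 24.9 and 27.7 FPKM in knockdown-labelled input and polyribosome RNA and at 25.0 and 27.2 FPKM in the controls. IRF7, which amplifies interferon production, was at most 0.07 FPKM in any library. All 50-base stretches of the IRF9 transcript are shared with a readthrough transcript annotated over it, so its reads cannot be assigned to IRF9 alone.

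The sensors of viral RNA were low in all 4 libraries and highest in the knockdown-labelled input. DDX58, which encodes RIG-I, a sensor of short RNA with a 5′ triphosphate, was at 4.20 and 0.56 FPKM in knockdown-labelled input and polyribosome RNA, against 1.16 and 0.85 FPKM in the controls. IFIH1, which encodes MDA5, a sensor of long double-stranded RNA, was at 6.68 and 0.43 FPKM in the knockdown-labelled libraries, against 2.51 and 1.04 FPKM. Each was at least 2-fold higher in input, by 1.27 and 1.13 on the log2 scale, while its knockdown-labelled polyribosome value was the lowest of the 4. The helicase DDX60, an ally of these sensors, stayed under 1 FPKM in every library.

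IFIT proteins bind viral RNA that lacks host-type cap marks and keep it from ribosomes, and all 4 measured family members stood highest in knockdown-labelled input. IFIT3, which stabilizes IFIT1, was at 48.4 and 6.83 FPKM in knockdown-labelled input and polyribosome RNA, against 5.93 and 5.48 FPKM in the controls, differences of 2.83 in input and 0.27 in polyribosome RNA. IFIT1, the cap-binding member, was at 49.3 and 6.0 FPKM in the knockdown-labelled libraries, against 7.29 and 6.17 FPKM, differences of 2.60 and -0.03. In both genes the knockdown-labelled input stood alone and the other 3 libraries lay close together. IFIT5 was at 12.0 and 1.30 FPKM in knockdown-labelled input and polyribosome RNA, against 2.99 and 2.51 FPKM in the controls. IFIT2 was at 10.0 and 0.67 FPKM, against 4.97 and 2.36 FPKM. Its input difference of 0.89 was under 2-fold, and its polyribosome difference of -1.01 was just past 2-fold lower. That polyribosome difference was -0.38 with a pseudocount of 5 FPKM and 0.034 once a trend on GC content and length was removed. IFIT2 shares 8.40% of its 50-base stretches with an overlapping transcript.

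Membrane effectors contained wide contrasts in both directions. BST2, also called tetherin, which holds budding virions at the cell surface, was at 263 and 338 FPKM in knockdown-labelled input and polyribosome RNA, against 0.38 and 0.56 FPKM in control input and polyribosome RNA. The differences were 7.58 and 7.76, with no overlap between groups. IFITM1, a plasma membrane protein that blocks fusion of viruses, was at 642 and 616 FPKM in the knockdown-labelled libraries, against 8.58 and 8.38 FPKM in the controls, differences of 6.07 and 6.04. Its neighbour and paralog IFITM2 went the other way, at 1.89 and 1.46 FPKM in knockdown-labelled input and polyribosome RNA, against 42.1 and 43.4 FPKM in the controls, differences of -3.90 and -4.17. IFITM3, the endosomal paralog, was the most abundant member in every library and differed little, at 2140 and 2860 FPKM in the knockdown-labelled libraries, against 2090 and 2218 FPKM. The 3 paralogs share sequence, as 39.0% of the 50-base stretches of IFITM1 occur in IFITM2 and 14.4% of those of IFITM3 occur in IFITM2, and how reads shared between them were counted is not given in the sources used here. PLSCR1, a phospholipid scramblase, followed the IFIT pattern, at 95.1 and 26.8 FPKM in knockdown-labelled input and polyribosome RNA, against 22.5 and 24.2 FPKM in the controls.

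OAS enzymes make oligoadenylates that switch on the RNase that degrades viral and host RNA, and the members of the family separated from each other. OAS1 was at 203 and 190 FPKM in knockdown-labelled input and polyribosome RNA, against 3.91 and 5.43 FPKM in control input and polyribosome RNA, differences of 5.37 and 4.89. OAS2 was at 78.1 and 21.0 FPKM in the knockdown-labelled libraries, against 0.35 and 0.41 FPKM in the controls, differences of 5.87 and 3.97. Both knockdown-labelled libraries were far above both controls for these 2 genes. OAS3, whose product binds the longest double-stranded RNA, was at 34.3 and 17.0 FPKM in knockdown-labelled input and polyribosome RNA, against 19.1 and 19.4 FPKM, and the groups overlapped. OASL, a relative without synthetase activity that assists RIG-I, was at 28.9 and 31.4 FPKM, against 22.7 and 25.4 FPKM, less than 2-fold apart in both fractions.

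Further antiviral effectors were mostly near the bottom of the range. TRIM22, a ubiquitin ligase that restricts retroviruses, was at 5.82 and 0.67 FPKM in knockdown-labelled input and polyribosome RNA, against 0.20 and 0.11 FPKM in the controls, differences of 2.51 and 0.59. ISG20, an exonuclease that digests single-stranded RNA, was the 1 member at least 2-fold higher on polyribosomes alone, at 6.45 and 11.4 FPKM in the knockdown-labelled libraries, against 3.87 and 3.36 FPKM. MX1, a dynamin-like GTPase that traps viral nucleocapsids and one of the best known interferon markers, stayed under 1 FPKM in all 4 libraries, as did RSAD2, which encodes viperin. SAMD9L, a translation inhibitor, reached 0.75 FPKM in knockdown-labelled input and 0.11 FPKM in knockdown-labelled polyribosome RNA, against 0.01 FPKM in each control. Its paralog SAMD9 was at 2.63 and 0.18 FPKM, against 3.68 and 1.49 FPKM. Its polyribosome difference of -1.08 was past 2-fold lower, but it was -0.33 with a pseudocount of 5 FPKM and turned to 0.88 once a trend on GC content and length was removed.

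The ISG15 system showed its modifier, its protease and its conjugating enzyme at different distances. ISG15 itself was at 658 and 976 FPKM in knockdown-labelled input and polyribosome RNA, against 109 and 137 FPKM in control input and polyribosome RNA, differences of 2.58 and 2.82. USP18, which removes ISG15 from proteins and dampens the type I receptor, was at 43.0 and 42.2 FPKM in the knockdown-labelled libraries, against 14.6 FPKM in each control, and 23.0% of its 50-base stretches occur in USP41. UBE2L6, the conjugating enzyme, was at 136 and 130 FPKM in knockdown-labelled input and polyribosome RNA, against 88.6 and 101 FPKM, so that both knockdown-labelled values were higher but under 2-fold. HERC5, the main human ligase for ISG15, was at most 0.44 FPKM in any library. HERC6, the main ligase in mouse, was at 6.26 and 0.88 FPKM in knockdown-labelled input and polyribosome RNA, against 1.43 and 1.12 FPKM. TRIM25, a ligase that acts on RIG-I, was at 32.9 and 22.6 FPKM in the knockdown-labelled libraries, against 15.8 and 16.1 FPKM, and its input difference of 1.01 was just past 2-fold.

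Both ADP-ribosyltransferase family members of the list resembled the IFIT genes. PARP9 was at 40.4 and 6.58 FPKM in knockdown-labelled input and polyribosome RNA, against 5.67 and 4.64 FPKM in the controls, differences of 2.63 and 0.43. Its exons overlap DTX3L on the opposite strand, and the strand setting of the counting is not given in the sources used here. PARP14 was at 4.37 and 0.94 FPKM in the knockdown-labelled libraries, against 1.30 and 1.25 FPKM.

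The remaining 9 induced genes included IFI27 and IFI6, which were far higher in both knockdown-labelled libraries. IFI27, which encodes a small mitochondrial membrane protein, was at 303 and 428 FPKM in knockdown-labelled input and polyribosome RNA, against 0.30 and 0.29 FPKM in control input and polyribosome RNA, differences of 7.87 and 8.38. IFI6, a small membrane protein that limits flavivirus replication and whose promoter with 3 response element matches is printed above, was at 1541 and 1514 FPKM in the knockdown-labelled libraries, against 9.35 and 10.5 FPKM, differences of 7.22 and 7.04. Both values lay far above both controls in each gene. IFI44, a GTP-binding protein relative, was at 79.9 and 8.65 FPKM in knockdown-labelled input and polyribosome RNA, against 1.90 and 1.69 FPKM. IFI44L, its paralog, was at 16.6 and 1.40 FPKM, against 0.02 and 0.03 FPKM. These paralogs were higher in both knockdown-labelled libraries, but by far more in input (4.80 and 4.11) than on polyribosomes (1.84 and 1.22). LGALS3BP, a secreted glycoprotein that binds galectin, was at 509 and 754 FPKM in knockdown-labelled input and polyribosome RNA, against 148 and 161 FPKM. IFI35, a leucine zipper protein, was at 79.2 and 141 FPKM, against 25.3 and 26.8 FPKM. SP110, a nuclear body protein, was the exception, at 17.1 and 3.40 FPKM in knockdown-labelled input and polyribosome RNA, against 18.1 and 21.8 FPKM, a polyribosome difference of -2.37 beside an input difference of -0.07. XAF1, which opposes the apoptosis inhibitor XIAP, and EPSTI1 stayed under 1 FPKM in every library.

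**Figure D3:**
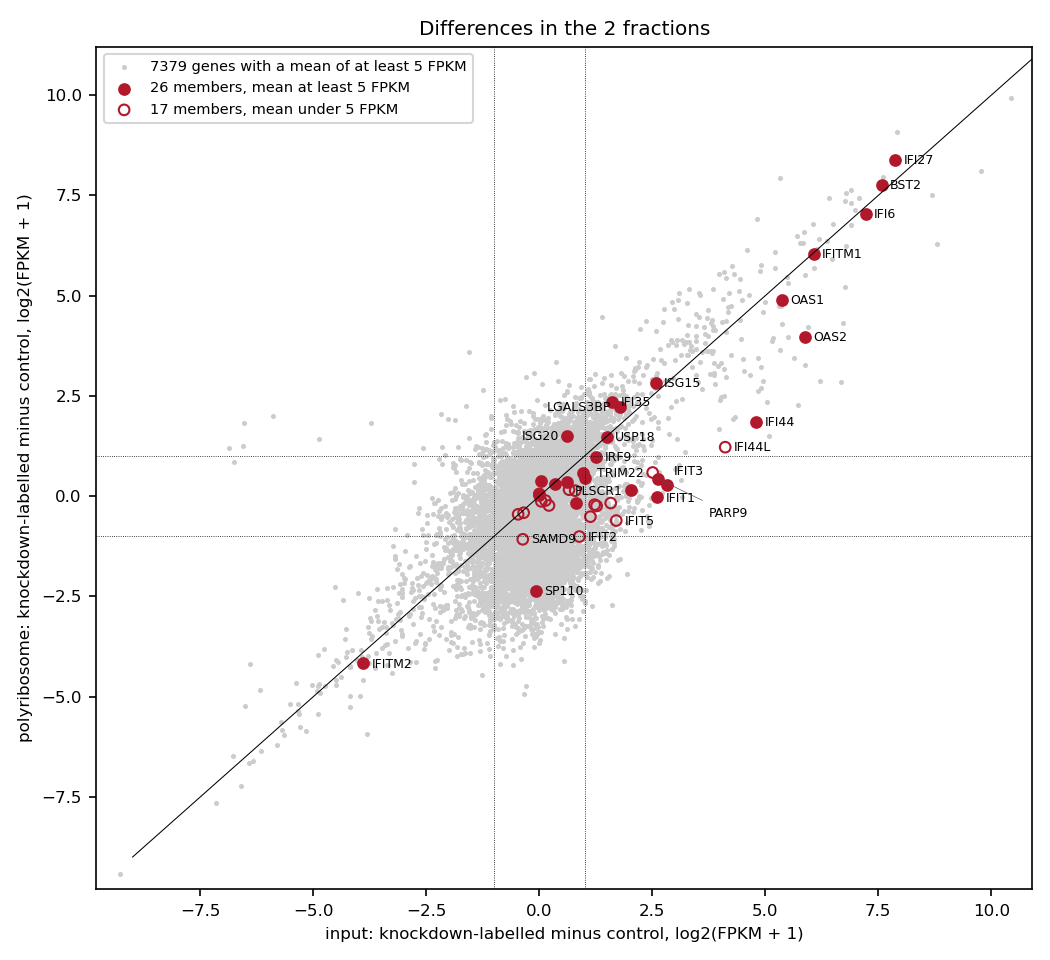
Log2 difference of FPKM + 1, knockdown-labelled minus control, in input (x axis) and polyribosome RNA (y axis) for 7379 genes averaging 5 FPKM or more (grey), 26 members past that mean (filled) and 17 members below it (open); dotted lines mark 2-fold and the solid line equal differences. IFI27, BST2, IFI6 and IFITM1 lie along the line of equal differences, whereas IFI44, IFIT1, IFIT3 and PARP9 lie below it.

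Polyribosome loading was set against input as a log2 ratio, polyribosome over input (FPKM + 1), and its difference was knockdown-labelled minus control. Of the 26 members with a mean of at least 5 FPKM, 7 had a ratio at least 2-fold lower in the knockdown-labelled cells (background 30.1%) and 0 had a higher one (background 12.0%). The share of lower members, at 26.9%, was near the background. They were IFI44 (-2.96), IFIT1 (-2.64), IFIT3 (-2.56), SP110 (-2.30), PARP9 (-2.21), OAS2 (-1.91) and PLSCR1 (-1.89). In the authors' deposited table, which adds 5 to both FPKM, the ratio of IFIT1 was 0.203 in knockdown and 0.909 in control cells, that of IFI44 0.161 and 0.970, and that of ISG15 1.48 and 1.25. Within the knockdown-labelled cells alone, the same 7 members were at least 2-fold lower on polyribosomes than in input (background 28.8%) and 0 were higher (8.62%). Without the limit on the mean, 16 were lower (background 21.7%) and 0 higher (4.15%). For the difference between the cells without that limit, 15 members were lower (background 19.6%) and 0 higher (6.18%). With the knockdown-labelled columns in the order of the closing headings, the same 7 differences turned positive, at 1.69 to 3.18, and IFIT1 would be -0.24 in input.

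The members that were higher in input alone had lower median GC content and longer transcripts than those higher in both fractions. The 12 higher in both had a median transcript GC content of 54.4% (range 37.8% to 64.7%) and a median length of 1458 bases. The 12 higher in input alone, namely DDX58, HERC6, IFIH1, IFIT1, IFIT3, IFIT5, IRF9, PARP14, PARP9, PLSCR1, TRIM22 and TRIM25, had a median of 43.4% (37.4% to 55.4%) and 3396.5 bases. The ranges overlap over most of their width. IFI44, IFI44L and OAS2 were higher in both at a GC content of 39.1%, 37.8% and 47.4%, and IRF9 and TRIM25 were higher in input alone at 55.4% and 51.1%.

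The relation with GC content was not particular to these genes. Across the 26 members the difference in loading correlated with GC content at Pearson's r = 0.87 and Spearman's rho = 0.83, and across 7346 genes with a transcript match at r = 0.75 and rho = 0.78. Genes are not independent replicates, all points share the same 4 libraries, and these values are descriptions. The input difference did not follow GC content, with r = -0.04 over the members and -0.07 over all genes, and the control ratio had r = 0.50 and rho = 0.42 over the members, against r = 0.06 and rho = 0.02 over all genes. Among genes with 40% to 45% GC the median difference in loading was -1.74 over 1246 genes and -2.56 over IFIT1, IFIT3 and PARP9. Among those with 55% to 60% it was 0.33 over 1460 genes and 0.00 over 8 members, which include BST2, IFI27, IFI35 and IFI6. At 60% and above it was 0.74 over 1523 genes, against 0.24 for ISG15 and 0.44 for LGALS3BP. After a trend on GC content and length across all genes was removed, 16 of 26 members were at least 2-fold higher in polyribosome RNA (background 10.3%), the median polyribosome difference was 1.28, and 13 were higher in both fractions (6.10%). In the same setting 10 of 26 had a ratio difference at least 2-fold lower (background 17.6%), with a median of -0.72 against -0.39 over all genes. The part of base composition in these differences was not tested beyond that.

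**Figure D4:**
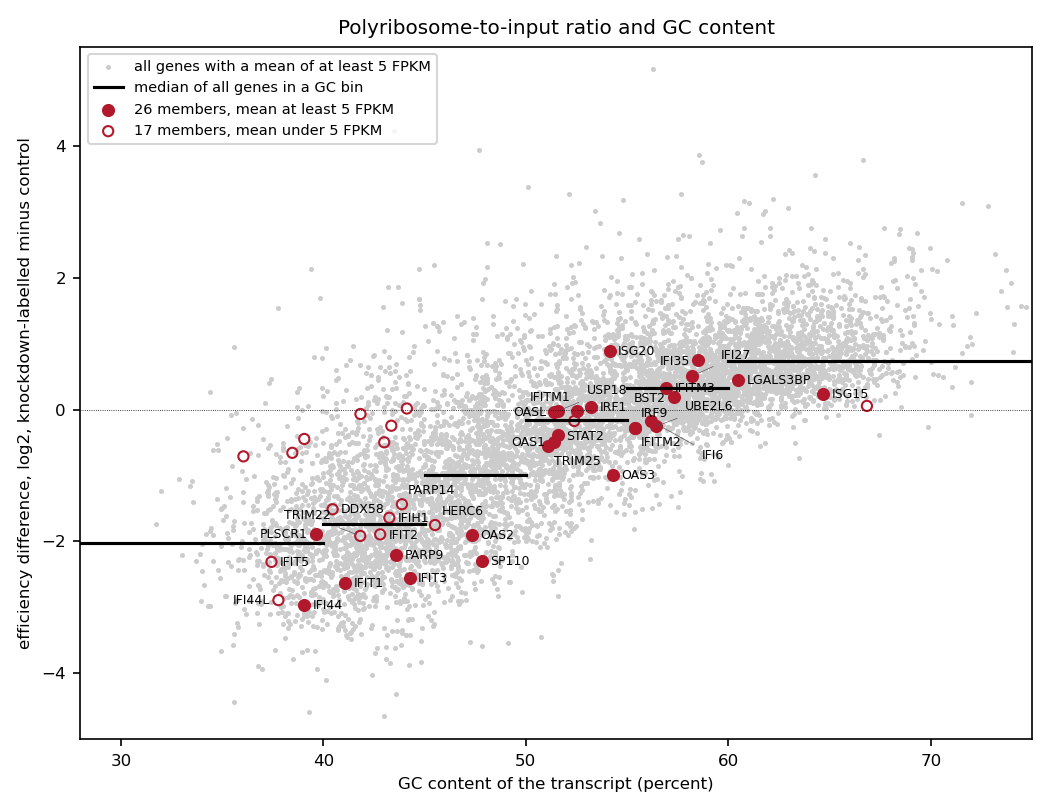
Difference of the log2 polyribosome-to-input ratio, knockdown-labelled minus control, against the GC content of 1 transcript per gene for all genes averaging 5 FPKM or more (grey), with the median of all genes in each GC bin (black lines), 26 members past that mean (filled) and 17 below it (open). Members of low GC content such as IFI44 (-2.96) and IFIT1 (-2.64) lie low, several of them under the median of their bin. Filled points at 50% GC and above run from OAS3 (-0.99) to ISG20 (0.89).

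Other genes of the pathway were taken from 6 lists by role, and no list has a test. Of 13 interferon ligands, 5 were in the table and all had a mean under 5 FPKM. The type III ligands IFNL1, IFNL2 and IFNL3 were nevertheless at least 2-fold higher in both knockdown-labelled libraries. IFNL1 was at 4.74 and 6.55 FPKM in knockdown-labelled input and polyribosome RNA, against 0.41 and 0.29 FPKM in control input and polyribosome RNA. IFNL2 was at 4.79 and 6.05 FPKM, against 0.12 and 0.20 FPKM, and IFNL3 at 4.03 and 4.99 FPKM, against 0.11 and 0 FPKM; these paralogs are nearly identical, so the split between them is uncertain. IFNB1, the ligand of the type I receptor, was at 0.29 and 0.17 FPKM in the knockdown-labelled libraries and listed at 0 in both controls.

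Of 7 receptors and kinases with a mean of at least 5 FPKM, 0 were at least 2-fold higher in input and 1 lower, and in polyribosome RNA 0 were higher and 3 lower. The background over genes past that mean, for this and the lists that follow, was 13.2% higher and 14.4% lower in input, and 16.7% higher and 32.9% lower in polyribosome RNA. JAK1, the kinase common to the receptors, was at 22.3 and 1.84 FPKM in the knockdown-labelled libraries, against 10.7 and 8.27 FPKM. IFNGR1, the ligand-binding chain of the interferon gamma receptor, was at 14 and 1.30 FPKM in knockdown-labelled input and polyribosome RNA, against 7.41 and 7.47 FPKM in the controls. IFNGR2, the other chain of that receptor, was at 18.4 and 33.0 FPKM, against 49.2 and 28.5 FPKM. The kinase TYK2 was at 14.1 and 24.6 FPKM in knockdown-labelled input and polyribosome RNA, against 22.2 and 22.0 FPKM.

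Among 9 sensors and adaptors past the mean, 1 was higher and 2 lower in input, and 1 was higher and 2 lower in polyribosome RNA. TMEM173, which encodes the adaptor STING of DNA sensing, was at 68.0 and 85.4 FPKM in knockdown-labelled input and polyribosome RNA, against 19.4 and 17.0 FPKM in the controls. IRF5, a factor downstream of Toll-like receptors, was at 1.00 and 2.10 FPKM, against 11.3 and 11.4 FPKM. Of 14 negative regulators and enzymes of self nucleic acids, 2 were higher and 2 lower in input, and 2 higher and 5 lower in polyribosome RNA, where the background for lower genes was 32.9%. ADAR, which edits double-stranded RNA, was at 107 and 32.4 FPKM in the knockdown-labelled libraries, against 37.8 and 42.7 FPKM. SOCS3, an inhibitor of JAK signalling, was at 20.2 and 23.7 FPKM in knockdown-labelled input and polyribosome RNA, against 44.1 and 41.5 FPKM. SOCS1, in the same list, went the other way, at 7.15 and 22.2 FPKM, against 4.34 and 2.81 FPKM, differences of 0.61 and 2.61.

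A list of 57 further induced genes had 26 past the mean, of which 9 were higher (background 13.2%) and 2 lower (14.4%) in input, 7 higher (16.7%) and 9 lower (32.9%) in polyribosome RNA, and 5 higher (6.57%) and 1 lower (7.02%) in both. Of the genes higher in both, LGALS9, LAMP3, TAPBPL and HELZ2 were under 5 FPKM in both controls and passed the mean through the knockdown-labelled libraries. Under that mean, MX2, BATF2 and RTP4 were also higher in both, and CD274, C1S and C1R were lower in both. LGALS9, which encodes galectin-9, was at 55.6 and 75.1 FPKM in knockdown-labelled input and polyribosome RNA, against 2.25 and 2.71 FPKM in the controls, differences of 4.12 and 4.36. LAMP3, a lysosomal membrane protein of dendritic cells, was at 35.9 and 5.58 FPKM, against 1.34 and 1.07 FPKM. PARP10 was at 16.1 and 28.2 FPKM in the knockdown-labelled libraries, against 4.75 and 5.48 FPKM. WARS, the tryptophan tRNA synthetase that interferon gamma induces, went the other way, at 34.7 and 22.5 FPKM in knockdown-labelled input and polyribosome RNA, against 81.8 and 101 FPKM. CD274, which encodes PD-L1 and also answers to interferon gamma, was at 1.88 and 0.21 FPKM, against 6.83 and 6.46 FPKM. Its mean was under 5 FPKM, so it is outside the counts past the mean. Genes that answer to interferon gamma were not compared as a set.

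Of 14 genes of MHC class I and its peptide supply past the mean, 5 were higher and 0 lower in each fraction (background 13.2% higher in input and 16.7% in polyribosome RNA), and 2 were higher in both (background 6.57%). HLA-B was at 819 and 852 FPKM in knockdown-labelled input and polyribosome RNA, against 13.0 and 17.8 FPKM in the controls, differences of 5.87 and 5.51. HLA-C was at 875 and 1018 FPKM, against 66.2 and 81.4 FPKM; reads shared among class I genes leave the split between them uncertain. The immunoproteasome subunits PSMB9 and PSMB8, induced mainly by interferon gamma, had input differences of -0.77 and -0.99, whereas PSMB10, another such subunit, was at 53.8 and 76.2 FPKM in knockdown-labelled input and polyribosome RNA, against 24.2 and 28.5 FPKM in the controls, differences of 1.12 and 1.39.

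**Figure D5:**
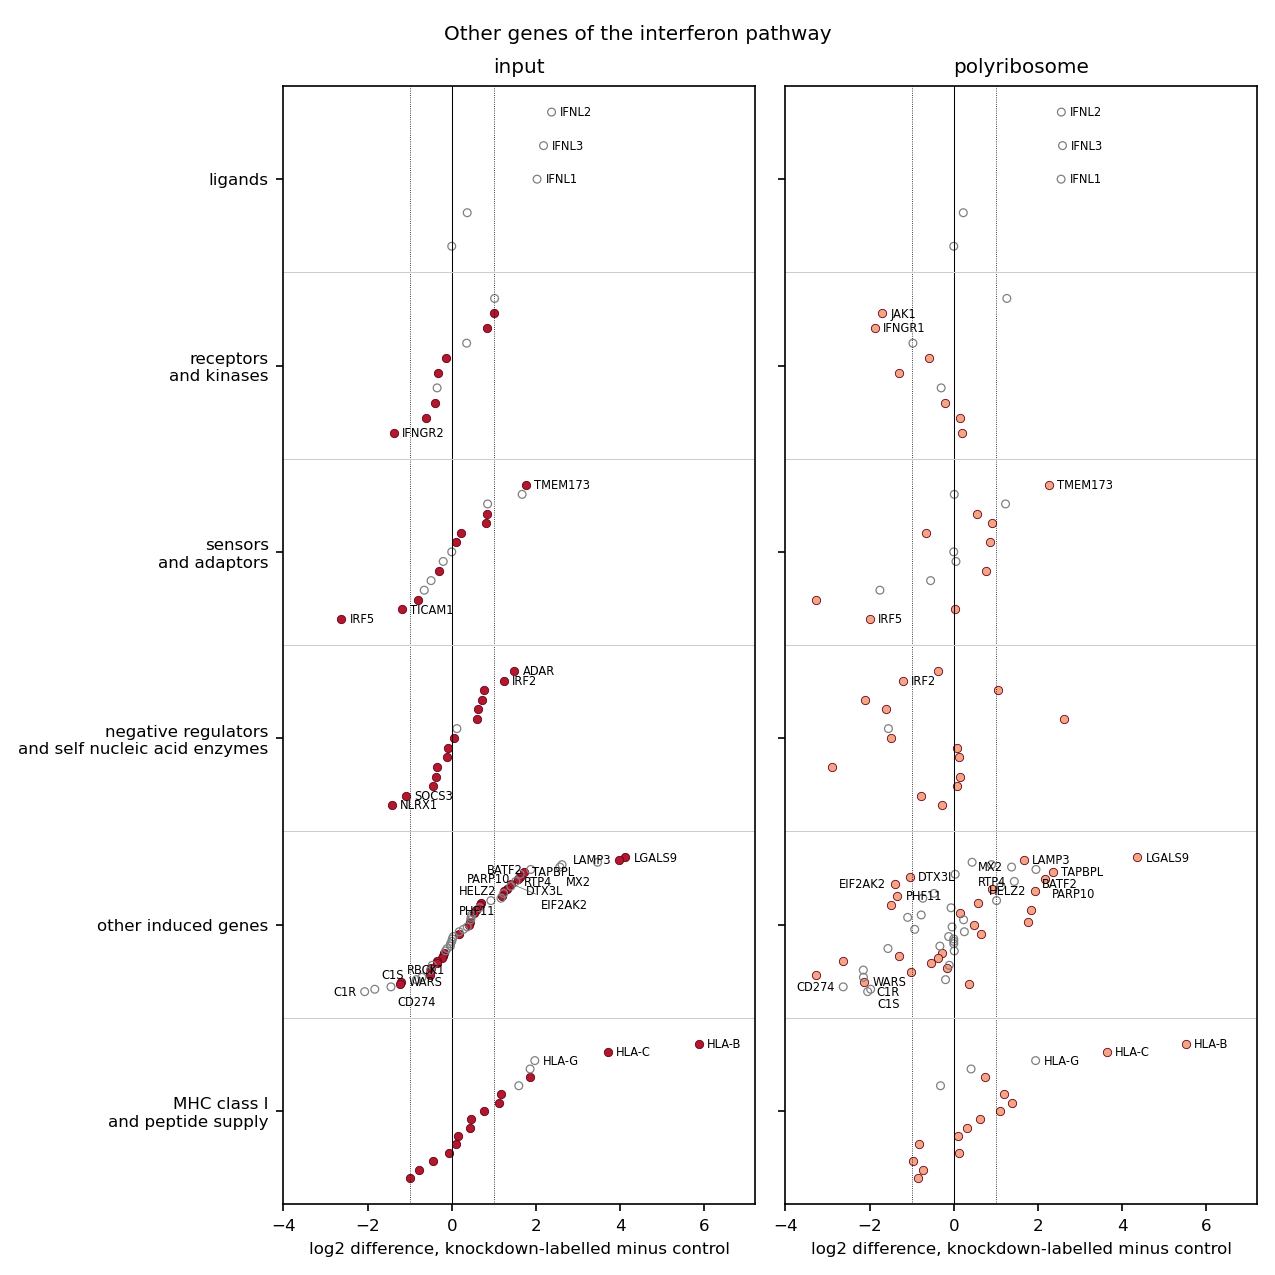
Log2 difference of FPKM + 1, knockdown-labelled minus control, in input (left) and polyribosome RNA (right) for the other pathway genes by list, with filled points for a mean of at least 5 FPKM and open grey points below it; dotted lines mark 2-fold. HLA-B, HLA-C, LGALS9 and the 3 IFNL genes lie to the right in both panels, whereas IRF2 (1.23 in input, -1.21 in polyribosome RNA) lies on opposite sides of 0.

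Markers of other cell types that could bring interferon-induced messages were low. The 8 immune markers summed to 4.12 and 3.83 FPKM in knockdown-labelled input and polyribosome RNA, against 1.49 and 1.28 FPKM in the controls, and 7 of the 8 were under 1 FPKM in every library. CSF1R, the macrophage growth factor receptor, made up most of the sum, at 2.93 and 2.79 FPKM against 0.63 FPKM in each control, while CLEC4C, a marker of plasmacytoid dendritic cells, was listed at 0 in both knockdown-labelled libraries and PTPRC, the pan-leukocyte CD45, was at most 0.63 FPKM. Fibroblast markers summed to at most 2.91 FPKM and endothelial markers to at most 0.78 FPKM in any library, and any part of these markers in the results was not tested.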

How the data were processed

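The authors deposited 1 table of FPKM per gene symbol for 4 libraries, whose kit keeps strand according to the labels' protocols. TopHat and the builds hg19 and GRCh37 are named in the submitters' processing notes, without version or role. What counted the fragments, against which annotation and with which strand setting is not given in the sources used here. The authors also deposited a polyribosome-to-input ratio per gene, which the values show to include 5 FPKM added to each term (largest gap 5e-10). Of the 17064 rows, 26 have a number for a name and 2 are named NA; they entered the background and named no gene.

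Sample titles gave the groups, and the header gave the columns. The lowest FPKM above 0 is 0.01, the rounding limit, so reads could not be recovered, depth is unknown and no interval or floor was computed. FPKM summed to 538002 and 627887 in knockdown-labelled input and polyribosome RNA, and to 579251 and 564769 in control input and polyribosome RNA. Differences were taken on log2(FPKM + 1), which understates those of low genes, and a gene was counted when at least 2-fold apart. Counts were made over every row and over 7379 genes averaging 5 FPKM or more. No test, p-value or error could be had from 1 library per group. A gene was called in both fractions when the lowest library of one group was at least 2-fold above the highest of the other.

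GC content and length came from 1 principal transcript per gene in GENCODE 29, matched for 7346 of the 7379 genes (99.6%) and all 43 members. Shared sequence was counted in stretches of 50 bases between these transcripts and those of other genes. Promoters are RefSeq's of GRCh38.p14, a later build than that in the processing notes, and no coordinate was converted. Python 3.11.15, numpy 2.4.6, pandas 2.3.3 and matplotlib 3.10.9 were used, and the scripts were tested on simulated data.

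Every member could be named. In each list of other pathway genes, the 2 highest and 2 lowest input differences past the mean, and any gene apart in both fractions, could be named, with NSUN6 and the cell type markers. IFNB1, METTL1, PSMB10, SOCS1 and the genes opposite in the 2 fractions were named after their values were seen. A gene of the receptor and kinase list is not reported here. Members and lists were chosen with earlier results of these data known. Alternatives were pseudocounts of 0.1 and 5 FPKM, a mean of 1 FPKM or no filter, centring, exchange of the knockdown-labelled columns, and removal of the trend on GC content and transcript length (quadratic in GC and log2 length).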

Additional observations from a re-analysis of the deposited data

Results flagged for a closer look

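Among 70 pathway genes outside the 43 that averaged 5 FPKM or more, 4 (5.71%) were past 2-fold higher in knockdown-labelled input and past 2-fold lower in knockdown-labelled polyribosome RNA, each against its control, as were 92 of all 7379 genes (1.25%) and 0 of 26 members. The difference was not tested, as each group is 1 library. EIF2AK2, which encodes the RNA-activated kinase PKR, was at 33.0 and 3.65 FPKM in knockdown-labelled input and polyribosome RNA, against 11.8 and 11.3 FPKM in control input and polyribosome RNA, a difference in the log2 polyribosome-to-input ratio of -2.81. DTX3L, the ubiquitin ligase partner of PARP9, was at 22.3 and 2.69 FPKM, against 6.61 and 6.63 FPKM, a difference of -2.66. Its exons overlap PARP9 on the opposite strand. PHF11, a zinc finger protein, was at 11.6 and 2.39 FPKM in knockdown-labelled input and polyribosome RNA, against 4.52 and 7.60 FPKM, a difference of -2.53. IRF2, a repressor at response elements, was at 26.7 and 5.28 FPKM, against 10.8 and 13.5 FPKM, a difference of -2.44. All 4 turned round with the knockdown-labelled columns exchanged. None stayed 2-fold lower in polyribosome RNA with a pseudocount of 5 FPKM, at -0.91, -0.60, -0.77 and -0.85 in the order above, or once the trend on GC content and length was removed, at 0.19, -0.15, -0.39 and -0.53.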

How the results depend on the processing

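No paired analysis was possible because each group has 1 library, and for the same reason no library could be left out. IFITM2 and 10 of the 11 members higher in both fractions past the mean of 5 FPKM kept that call under both pseudocounts, centring and removal of the GC and length trend, and IFI44 lost it with a pseudocount of 5 FPKM. Of 17 members higher in input, 12 kept the call under these and the exchange of columns, as did 11 of 12 in polyribosome RNA. The share of all called genes that kept a call was not counted. None of the 7 with a lower ratio could keep it, because the exchange turns the sign of the knockdown-labelled ratio. With pseudocounts of 0.1 and 5 FPKM, 8 and 7 of 26 members had a lower ratio difference (background 32.3% and 21.8%). After centring and removal of the trend these were 7 and 10 (27.9% and 17.6%). Depth is unknown, and values near 0.01 FPKM cannot be ranked.

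Counts moved by more than 1.5 times as follows. Of the 26 members averaging at least 5 FPKM, 0 at first had a higher polyribosome-to-input ratio difference (background 12.0%). This count was 1 with a pseudocount of 0.1 FPKM (13.5%), 1 after centring (15.2%) and 7 with the columns exchanged (27.8%). At a mean of 1 FPKM, of 35 members 4 were lower in polyribosome RNA (background 35.2%), 15 had a lower ratio difference (30.6%) and 16 a lower knockdown-labelled ratio (33.5%). With no filter these counts were 4, 15 and 16 of 43 (22.4%, 19.6% and 21.7%). With the columns exchanged these counts were 1, 0 and 0 of the 26 members (background 14%, 6.29% and 8.62%). In that setting 7 of the 26 had a higher knockdown-labelled ratio (28.8%) and 2 were lower in input (31.8%). Their median differences were 0.99 in input and 1.59 in polyribosome RNA, against -0.23 and -0.0082 over all genes.

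The exchange of columns also turned the sign of single genes, which follows from its construction. Ratio differences became 3.18 (IFI44), 2.86 (IFI44L), 3.05 (IFIT1), 3.55 (IFIT2), 2.75 (IFIT3), 2.68 (IFIT5), 1.78 (OAS2), 1.96 (DDX58), 3.21 (IFIH1), 2.15 (HERC6), 2.69 (PARP9), 1.5 (PARP14), 2.14 (TRIM22), 1.79 (SP110) and 1.69 (PLSCR1). Input differences became -0.24 (IFIT1), -0.79 (IFIT5), -0.47 (DDX58), -1.30 (IFIH1), -0.37 (HERC6), -0.25 (PARP14), -0.22 (ADAR), -1.04 (DTX3L), -1.46 (EIF2AK2), -0.91 (IRF2), -0.70 (PHF11) and 0.078 (RBCK1). Polyribosome differences became 1.71 (IFIT2), 0.54 (SAMD9), 1.61 (DTX3L), 1.47 (EIF2AK2), 0.93 (IRF2), 1.33 (JAK1), 0.82 (IFNGR1) and 0.55 (PHF11). Removal of the GC and length trend gave polyribosome differences of 0.034 (IFIT2), 0.88 (SAMD9) and 0.19 (EIF2AK2) and a ratio difference of 0.0032 (DDX58); the cause was not tested.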
